A study of Mus musculus with 11 samples.

Results

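The genes described here encode 10 enzymes of pyrimidine synthesis, chosen by name: Cad, Dhodh and Umps, which build UMP from small precursors; Ctps and Ctps2, which make CTP; Nme1 and Nme2, which phosphorylate nucleoside diphosphates; and Dctd, Tyms and Dtymk, which make the thymidine nucleotides. They are 10 of the 13359 genes listed in 1 or both of the study's muscle tables. The list was set with earlier results of these data known, so counts and shares below describe these genes and test nothing about the list. All 10 are in the soleus table and passed its filter on low values, and 9 are in the quadriceps table and passed there. Tyms is not in the quadriceps table.

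Libraries came from 2.5-month-old mice and fall into 4 groups: Myc-labelled soleus (4 libraries), control soleus (3), Myc-labelled quadriceps (2) and control quadriceps (2). Soleus is a small postural muscle of the calf with many slow fibres, and quadriceps is a large, mostly fast muscle of the thigh. Myc, a transcription factor, was overexpressed through a tetracycline system: mice were given doxycycline overnight, and tissue was taken 12 hours after its removal. Controls were of the same age. The labels name neither the promoter or cell type that drives the transgene, nor the genotype of the controls, nor any doxycycline given to them. RNA came from whole muscle, so fewer cells of a type and less RNA per cell cannot be told apart in any result below. Nothing in the labels says that the libraries of a group came from separate animals, so the p-values measure only the spread between these libraries, which may be technical.

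Pyrimidines are the bases uracil, cytosine and thymine. Cells make UMP from glutamine, bicarbonate and aspartate, phosphorylate it to UTP, aminate that to CTP, and derive the deoxynucleotides dCTP and dTTP from the diphosphates. UTP and CTP go into RNA, lipid and sugar intermediates, while dTTP serves DNA. Skeletal muscle fibres are postmitotic and also take up nucleosides from blood, a route called salvage. CAD has long been used as a model target of Myc in cultured mammalian cells.

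Depth was 11.1 to 14.9 M estimated reads in soleus and 14.2 to 18.4 M in quadriceps. Levels below are normalised read counts, in which 1 read is worth 0.837 to 1.174 in soleus and 0.8311 to 1.1605 in quadriceps. The 2 tables were normalised separately. Log2 changes are Myc-labelled minus control on log2(value + 1). A gene is called at an adjusted p under 0.05 from limma over all genes tested. The mouse Myc row did not mark the Myc-labelled libraries: it held 26.3, 31.0, 28.8 and 27.7 in Myc-labelled soleus against 30.0, 54.3 and 28.2 in control soleus, and 86.4 and 33.6 in Myc-labelled quadriceps against 113.7 and 55.7 in control quadriceps. Its log2 change was -0.33 in soleus (SE 0.40, adjusted p = 0.69) and -0.55 in quadriceps (SE 0.56, adjusted p = 0.93), so directions rest on how the libraries are labelled.

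Beside the groups, marker sums differed among libraries. The summed level of 8 slow fibre markers was 1795 to 2844 in Myc-labelled quadriceps and 25843 to 188533 in control quadriceps; all 8 markers were lower without overlap, against 16.9% of all quadriceps genes, and 0 were called. In soleus that sum overlapped between Myc-labelled (498161 to 637132) and control libraries (528699 to 615468). The sum of 8 fast fibre markers was 269162, 367631, 479035 and 304252 in Myc-labelled soleus against 438126 to 461539 in control soleus. All 8 had a negative log2 change in soleus, with a median of -0.41 beside -0.035 over all genes. Of the 8, 1, Mylpf, was called lower (-0.47, limma adjusted p = 0.010), against 2.23% of all genes. Myc-labelled soleus replicates 3 and 4 had the lowest tendon sums, 2155 and 3462, against 7289 and 6467 in Myc-labelled replicates 1 and 2 and 7415 to 9024 in controls. Erythroid sums followed the same split, at 3277 to 7523 in Myc-labelled soleus and 7444 to 7704 in controls, as did fibroblast sums, at 4363 to 12235 and 10069 to 13510. Satellite cell sums were 663 to 673 in Myc-labelled and 490 to 556 in control quadriceps, and overlapped between groups in soleus. Quadriceps tendon sums were 273 and 3493 in Myc-labelled and 3902 and 1372 in control libraries. The part of these marker differences in the results was not tested. The soleus log2 changes of single genes, the number called and the ratios of paralogues were recomputed without replicates 3 and 4.

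In soleus, the comparison asks how transcripts for pyrimidine synthesis differ after Myc induction. Of the 10 genes, 5 rose and 0 fell, where 7.06% of all 12745 genes tested were called higher and 2.23% lower. The 5 were Dctd, Cad, Ctps, Nme1 and Dhodh. Of these, Dctd passed the filter on low values because its Myc-labelled libraries are high. Another 3, Umps, Dtymk and Nme2, were higher in every Myc-labelled library than in any control without being called, so that 8 of 10 did not overlap, against 12.7% of all genes. The median log2 change over the 10 was 0.72, beside -0.035 over all genes tested.

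**Figure D1:**
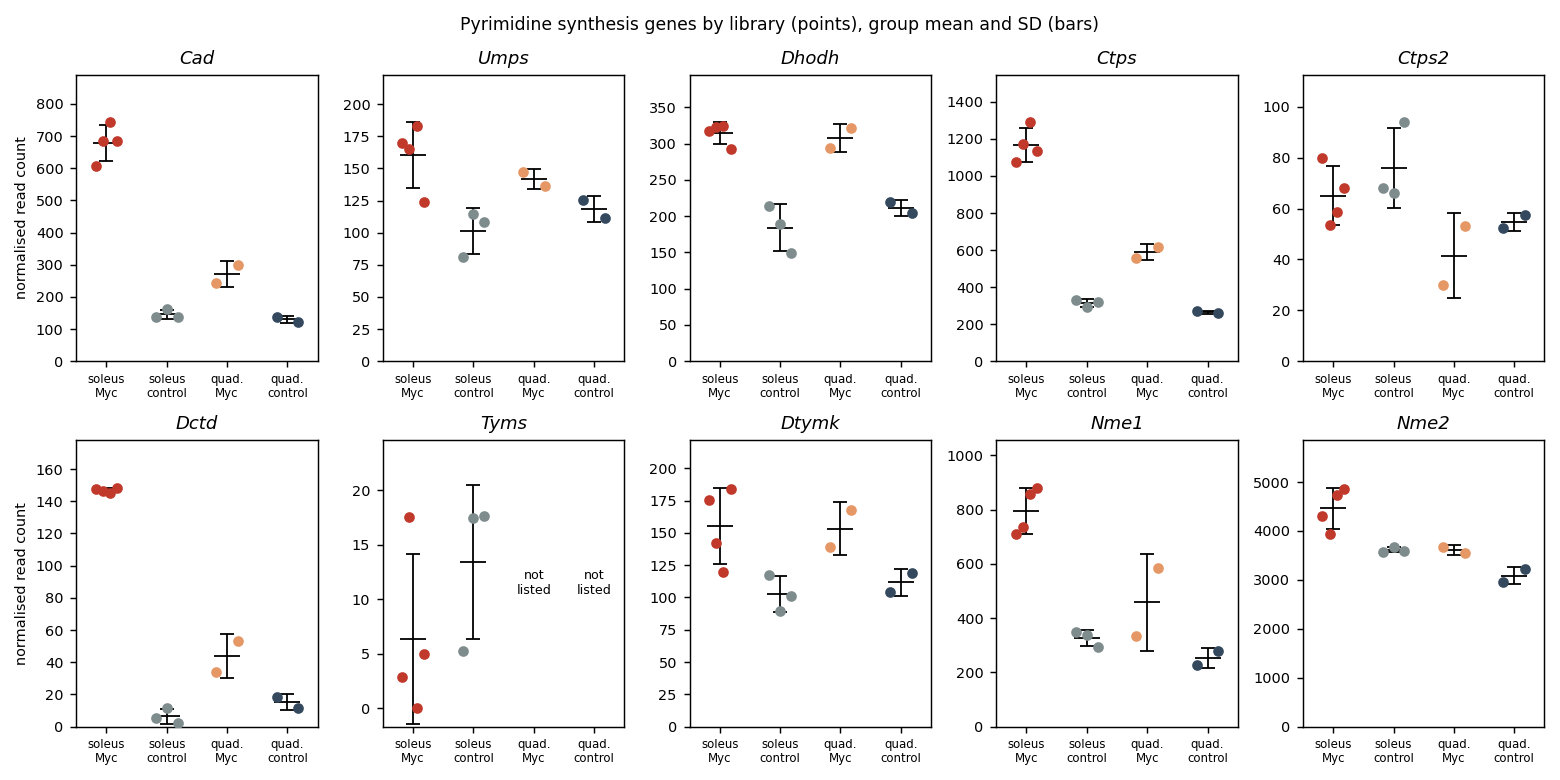
Normalised read counts (vertical axes, linear, 1 panel per gene) of the 10 genes in Myc-labelled and control soleus and quadriceps libraries; points are libraries, horizontal bars group means and vertical bars SD. Dctd stands at 145.1 to 148.4 in all 4 Myc-labelled soleus libraries and at 11.6 or less in the 3 controls, while Ctps2 and Tyms overlap between groups.

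Promoter sequences are shown for the genes that the results turn on: Cad, Ctps, Dctd and Nme1, which rose, with Nme2, the neighbour of Nme1, and Tyms, which were not called. Each is 250 bases before to 50 bases after an annotated start of the gene, written 5′ to 3′ on the gene's own strand, from RefSeq on GRCm38.p6. Some genes have several such starts, and the one shown need not be the most upstream or the one used in muscle. Of the 10 genes 9 matched that table, with 16 windows, and the first window holding a motif is shown, or else the first listed. Dhodh, which also rose, did not match and was not searched. Capitals mark CACGTG, the palindromic E-box that Myc and Max bind, or CGCGTG, the reverse complement of the variant CACGCG. Cad spans chr5:31054530-31054829 on the plus strand, Ctps chr4:120569410-120569709 on the minus strand and Dctd chr8:48098842-48099141 on the plus strand. Nme1 spans chr11:93967976-93968275, Nme2 chr11:93955734-93956033 and Tyms chr5:30073576-30073875, all on the minus strand.
Cad: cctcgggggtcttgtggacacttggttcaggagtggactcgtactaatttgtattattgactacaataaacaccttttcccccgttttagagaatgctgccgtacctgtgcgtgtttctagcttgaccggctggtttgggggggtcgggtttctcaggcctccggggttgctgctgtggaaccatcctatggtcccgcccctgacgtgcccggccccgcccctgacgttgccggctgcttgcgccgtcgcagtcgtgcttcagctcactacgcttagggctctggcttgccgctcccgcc
Ctps: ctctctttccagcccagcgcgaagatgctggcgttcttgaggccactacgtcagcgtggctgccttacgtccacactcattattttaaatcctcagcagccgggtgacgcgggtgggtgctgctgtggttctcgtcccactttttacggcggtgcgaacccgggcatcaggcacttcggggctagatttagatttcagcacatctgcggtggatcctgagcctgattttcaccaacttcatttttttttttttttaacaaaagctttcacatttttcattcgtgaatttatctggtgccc
Dctd: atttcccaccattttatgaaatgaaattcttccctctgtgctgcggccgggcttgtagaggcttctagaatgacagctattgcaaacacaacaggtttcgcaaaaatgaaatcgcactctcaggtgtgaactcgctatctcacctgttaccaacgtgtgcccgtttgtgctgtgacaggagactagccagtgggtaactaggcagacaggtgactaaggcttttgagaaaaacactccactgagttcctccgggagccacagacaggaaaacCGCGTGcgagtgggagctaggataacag
Nme1: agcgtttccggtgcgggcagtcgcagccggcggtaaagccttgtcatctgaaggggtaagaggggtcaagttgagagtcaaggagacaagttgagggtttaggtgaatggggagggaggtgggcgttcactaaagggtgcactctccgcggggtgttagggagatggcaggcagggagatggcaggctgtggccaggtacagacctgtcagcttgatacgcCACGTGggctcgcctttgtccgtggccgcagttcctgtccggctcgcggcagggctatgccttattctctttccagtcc
Nme2: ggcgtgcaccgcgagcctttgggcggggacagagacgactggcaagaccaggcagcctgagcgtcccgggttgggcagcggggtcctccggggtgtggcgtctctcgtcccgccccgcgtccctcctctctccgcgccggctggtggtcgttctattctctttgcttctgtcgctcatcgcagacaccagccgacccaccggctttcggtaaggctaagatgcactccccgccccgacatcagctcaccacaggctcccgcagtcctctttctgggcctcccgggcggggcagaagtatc
Tyms: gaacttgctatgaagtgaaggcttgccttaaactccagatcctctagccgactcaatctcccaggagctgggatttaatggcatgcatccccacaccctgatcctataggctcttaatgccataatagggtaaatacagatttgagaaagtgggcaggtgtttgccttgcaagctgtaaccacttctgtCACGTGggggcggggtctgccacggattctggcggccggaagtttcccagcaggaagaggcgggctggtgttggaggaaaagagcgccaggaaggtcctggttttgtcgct

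CACGTG was found in 3 of the 9 genes. It lies 29 bases before the start in the Nme1 window shown and 18 bases before it in the other Nme1 window, 61 bases before it in Tyms and 148 bases before it in Dtymk. Both strands were searched, and 7.15% of all 32851 windows and 12.0% of the soleus-tested genes in the table hold it. CACGCG was found in 1 of the 9 genes, 22 bases after the start in the Dctd window shown, and in 9.27% of windows and 20.1% of soleus-tested genes. The other Dctd windows, which begin at chr8:48109708 and chr8:48109763, held neither motif. The motifs did not fall in the same window of any of these genes. Among the genes with CACGTG, Nme1 rose while Tyms and Dtymk were not called, and the windows of Cad and Ctps held neither motif. Each window ends 50 bases after a start, and sequence beyond the windows was not searched. A motif farther downstream or upstream, in Cad, Ctps or any other gene, would thus have been missed.

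The route to UMP begins with Cad, one long protein that carries carbamoyl phosphate synthetase, aspartate transcarbamylase and dihydroorotase. Cad held 606.5, 683.9, 742.7 and 685.8 in Myc-labelled soleus against 137.0, 163.0 and 138.5 in control soleus. The lowest Myc-labelled library was well above the highest control. Means were 679.7 ± 55.9 (SD, n = 4) and 146.1 ± 14.6 (SD, n = 3), a log2 change of 2.21 (SE 0.14, limma adjusted p = 6.7e-08), the 28th largest of 12745. Leaving out each library in turn gave 2.17 to 2.29.

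Dhodh, on the inner mitochondrial membrane, oxidises dihydroorotate to orotate and passes the electrons to ubiquinone. It held 317.3, 323.1, 324.7 and 292.9 in Myc-labelled soleus and 213.8, 189.2 and 149.1 in control soleus. The 4 Myc-labelled libraries were close together and all above the more scattered controls. Dhodh rose by a log2 change of 0.78 (SE 0.16, limma adjusted p = 0.0052), 1.71 times the control mean.

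Umps, which joins orotate to phosphoribose and decarboxylates the product to UMP, held 169.4, 164.9, 183.1 and 123.7 in Myc-labelled soleus and 81.3, 114.5 and 108.0 in control soleus. Groups did not overlap, but the lowest Myc-labelled library, replicate 4, lay just above the highest control. The log2 change was 0.66 (SE 0.22, limma adjusted p = 0.082), with an interval of 0.18 to 1.13. An antisense locus, Gm15829, shares 213 exon bases with Umps (6.11% of its exon length) and is not a row of either table. Whether reads were counted by strand is not given in the sources used here.

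Both CTP synthases aminate UTP with glutamine. Ctps held 1075.7, 1172.8, 1289.6 and 1133.2 in Myc-labelled soleus against 331.3, 291.0 and 320.5 in control soleus. Every Myc-labelled library was far above every control. Ctps rose by a log2 change of 1.89 (SE 0.11, limma adjusted p = 3.8e-08), 3.72 times the control mean.

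Ctps2, its X-linked paralogue, held 79.8, 53.6, 58.7 and 68.3 in Myc-labelled soleus against 68.0, 66.0 and 93.9 in control soleus. The groups overlapped, and the log2 change was -0.22 (SE 0.28, limma adjusted p = 0.71) with an interval of -0.82 to 0.38. Within a library, Ctps stood at 13.3, 21.5, 21.6 and 16.4 times Ctps2 in Myc-labelled soleus and at 4.81, 4.36 and 3.39 times in control soleus, counting each value plus 1. The log2 ratio was 4.16 ± 0.34 (SD, n = 4) and 2.05 ± 0.26 (SD, n = 3), a difference of 2.11 (exact permutation test, two-sided, p = 0.0286, the smallest that 35 splits allow). A processed pseudogene, Gm16465, is 92.3% identical to Ctps over 1778 bases and is not a row of either table, so how its reads were assigned is unknown.

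Nme1 and Nme2 encode nucleoside diphosphate kinases A and B, which transfer a phosphate to UDP, CDP and their deoxy forms. Nme1 held 710.6, 734.1, 855.5 and 880.8 in Myc-labelled soleus against 349.0, 335.6 and 292.3 in control soleus. All 4 Myc-labelled libraries were above every control, and Nme1 rose by a log2 change of 1.28 (SE 0.13, limma adjusted p = 4.5e-06).

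Nme2 held 4303.7, 3941.0, 4743.8 and 4865.1 in Myc-labelled soleus against 3579.4, 3677.4 and 3587.5 in control soleus. The groups did not overlap, yet the highest control was close to the lowest Myc-labelled library. Its log2 change was 0.30 (SE 0.10, limma adjusted p = 0.063), which passed under library-size scaling (0.35, adjusted p = 0.012) and without Myc-labelled replicate 2 (0.36, adjusted p = 0.037). Over all alternatives the log2 change ran from 0.19 to 0.36, with limma adjusted p up to 0.32.

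Relative to Nme2, Nme1 stood at 0.165, 0.186, 0.181 and 0.181 in Myc-labelled soleus and at 0.0978, 0.0915 and 0.0817 in control soleus. The log2 ratio was -2.49 ± 0.075 (SD, n = 4) and -3.47 ± 0.13 (SD, n = 3), a difference of 0.98 (exact permutation test, two-sided, p = 0.0286, the smallest that 35 splits allow). The genes are neighbours on chromosome 11, and a readthrough locus, Gm20390, shares 418 exon bases with Nme1 (12.9% of its exon length) and 573 with Nme2 (48.9%). Nme2 also has 4 processed pseudogenes at 89.1% to 97.8% identity. None of these is a row of either table, and how reads were divided among them is unknown.

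**Figure D2:**
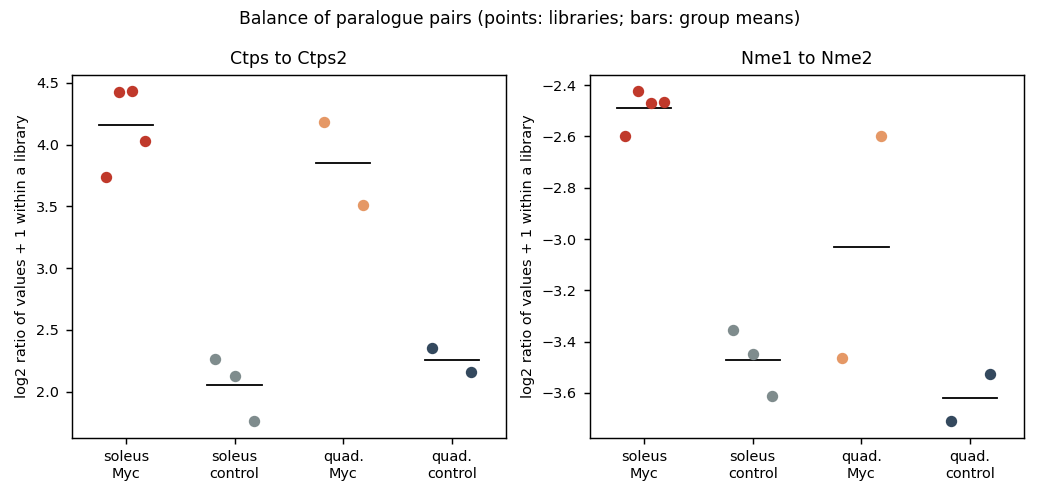
Log2 ratio of Ctps to Ctps2 (left) and of Nme1 to Nme2 (right) within each library, from normalised read counts plus 1, by muscle and group; points are libraries and lines group means. In soleus the 4 Myc-labelled libraries lie above all 3 controls in both panels, and in quadriceps the Nme1 to Nme2 values of the 2 Myc-labelled libraries lie far apart, at -3.46 and -2.60.

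Thymidine nucleotides branch off at dUMP. Dctd, the dCMP deaminase that makes dUMP, held 148.0, 146.5, 145.1 and 148.4 in Myc-labelled soleus against 5.30, 11.6 and 2.35 in control soleus. The control values correspond to about 6, 12 and 2 reads, and the last lies under a floor of 3 reads, whereas 126 to 175 reads stood behind each Myc-labelled value. Only 1 control reached the filter value of 10, so Dctd was tested because its Myc-labelled libraries are high. Its rank, p-value and interval below are a description. No other gene of the 12745 had a larger log2 change, which was 4.52 (SE 0.43, limma adjusted p = 3.6e-06; 3.61 to 5.43). The ratio of group means was 22.9, and leaving out each library in turn gave log2 changes of 4.05 to 5.01.

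The Myc-labelled soleus libraries differed in Dctd by a coefficient of variation of 1.04%, less than the 8.14% that counting error alone gives at their mean of 150.8 reads. The other 9 genes varied by 4.69% to 121.8% in the same libraries. Control soleus libraries varied by 73.8% for Dctd at their few reads.

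Tyms, thymidylate synthase, methylates dUMP to dTMP and in most tissues follows cell division. It held 2.92, 17.6, 0.00 and 4.95 in Myc-labelled soleus against 5.30, 17.5 and 17.6 in control soleus. These are 0 to 21 reads per library, the groups overlapped, and the log2 change was -1.50 with an interval of -3.79 to 0.78 (limma adjusted p = 0.45). Without Myc-labelled replicate 3, the library at 0, the log2 change was -0.77, and the interval does not settle the direction. Its processed pseudogene Tyms-ps, 93.9% identical over 935 bases, is not a row of either table.

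Dtymk, thymidylate kinase, converts dTMP to dTDP. It held 175.2, 142.3, 119.7 and 184.1 in Myc-labelled soleus and 117.5, 89.2 and 101.0 in control soleus. Replicate 3 was the lowest of the Myc-labelled libraries and stood barely above the highest control. The log2 change was 0.58 (SE 0.22, limma adjusted p = 0.13) with an interval of 0.11 to 1.06.

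Without Myc-labelled replicates 3 and 4, the libraries low in tendon and erythroid markers, 5 of the 10 genes were again called in soleus. Under every alternative tried in soleus, 5 or 6 were called; the sixth was Nme2 or Umps. Cad, Dhodh, Ctps, Dctd and Nme1 passed under all 19, which for Dctd remains a description.

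Levels between genes were set side by side per kilobase of summed exon length. That length counts every exon annotated for a gene, 3236 bases for Nme1 and 1171 for Nme2, whether or not muscle uses it. The order below depends on it. In Myc-labelled soleus Nme2 was highest at 3812 per kilobase, followed by Ctps at 431.7, Nme1 at 245.8, Dhodh at 154.3, Cad at 93.7, Dtymk at 68.4, Dctd at 65.2, Umps at 46.0, Ctps2 at 17.1 and Tyms at 2.01. In control soleus the order was Nme2 at 3087, Ctps at 116.2, Nme1 at 100.6, Dhodh at 90.3, Dtymk at 45.2, Umps at 29.1, Cad at 20.15, Ctps2 at 19.95, Tyms at 4.25 and Dctd at 2.85. Among controls Cad and Ctps2 were level, and Tyms and Dctd overlapped in spread. Dctd thus stood last of 10 in control soleus and 7th in Myc-labelled soleus, next to Dtymk, from which it did not differ beyond the spread of Dtymk.

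In quadriceps, the comparison asks the same question with 2 libraries on each side. Of the 9 genes listed, 0 were called by limma and 0 by limma-voom, beside 0.00815% of 12270 genes called higher, which is 1 gene. At an unadjusted p under 0.05 there were 5 of 9 higher, Cad, Ctps, Dctd, Nme1 and Dhodh, against 3.97% of all genes. Groups did not overlap, with the Myc-labelled libraries higher, for 8 of 9 genes, against 18.3% of all genes. The median log2 change over the 9 genes was 0.54, beside -0.031 over all genes tested.

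Cad held 241.7 and 300.01 in Myc-labelled quadriceps against 138.1 and 122.2 in control quadriceps, 2.08 times the control mean. The log2 change was 1.05 (SE 0.23, limma adjusted p = 0.36). Dhodh held 294.1 and 321.7 in Myc-labelled quadriceps against 219.3 and 203.6 in control quadriceps (log2 change 0.54, SE 0.19, limma adjusted p = 0.67). For both genes each Myc-labelled library was above each control. Umps, at 147.1 and 136.2 in Myc-labelled quadriceps against 125.3 and 111.4 in control quadriceps, had a log2 change of 0.26 with an interval of -0.32 to 0.83 (limma adjusted p = 0.93).

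Ctps held 558.4 and 618.8 in Myc-labelled quadriceps against 270.4 and 259.3 in control quadriceps, a log2 change of 1.15 (SE 0.17, limma adjusted p = 0.23). Leaving out each quadriceps library in turn gave log2 changes of 1.07 to 1.22. Ctps2 held 29.8 and 53.3 in Myc-labelled quadriceps against 52.2 and 57.3 in control quadriceps (log2 change -0.45, SE 0.43, limma adjusted p = 0.93). Ctps was higher in both Myc-labelled libraries, and Ctps2 overlapped. Their log2 ratio was 4.18 and 3.51 in Myc-labelled quadriceps against 2.35 and 2.16 in control quadriceps, a difference of 1.59, for which the exact two-sided permutation test cannot go below p = 0.333.

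Nme1 held 332.2 and 585.2 in Myc-labelled quadriceps against 225.1 and 277.6 in control quadriceps (log2 change 0.82, SE 0.29, limma adjusted p = 0.70). Both Myc-labelled libraries were above the controls, but replicate 2 far more so: without it the log2 change was 0.41, and without replicate 1 it was 1.22. Nme2 held 3677.7 and 3544.9 in Myc-labelled quadriceps against 2959.3 and 3213.2 in control quadriceps (log2 change 0.23, SE 0.18, limma adjusted p = 0.90). The log2 ratio of Nme1 to Nme2 was -3.46 and -2.60 in Myc-labelled quadriceps against -3.71 and -3.53 in control quadriceps, a difference of 0.59 (exact permutation test, two-sided, p = 0.333, the smallest possible).

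Dctd held 33.9 and 53.3 in Myc-labelled quadriceps against 18.6 and 11.6 in control quadriceps, that is 33 and 54 reads against 16 and 14. The groups did not overlap, and the log2 change was 1.47 (SE 0.57, limma adjusted p = 0.74) with an interval of 0.15 to 2.79. Dtymk held 138.8 and 167.8 in Myc-labelled quadriceps against 104.4 and 118.9 in control quadriceps (log2 change 0.45, SE 0.26, limma adjusted p = 0.87). Of the 2 genes of this branch that are listed, neither was called.

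When both muscles were fitted together over 11 libraries, which lends quadriceps the spread of soleus, Cad (limma adjusted p = 0.020) and Ctps (adjusted p = 0.0034) passed in quadriceps. In that fit 0.643% of 11971 genes were called higher. Per kilobase of exon, Nme2 was again highest, at 3084 in Myc-labelled and 2636 in control quadriceps, and Ctps followed at 217.6 and 97.9. Ctps2, at 10.9 in Myc-labelled quadriceps, and Dctd, at 6.70 in control quadriceps, were the lowest.

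**Figure D3:**
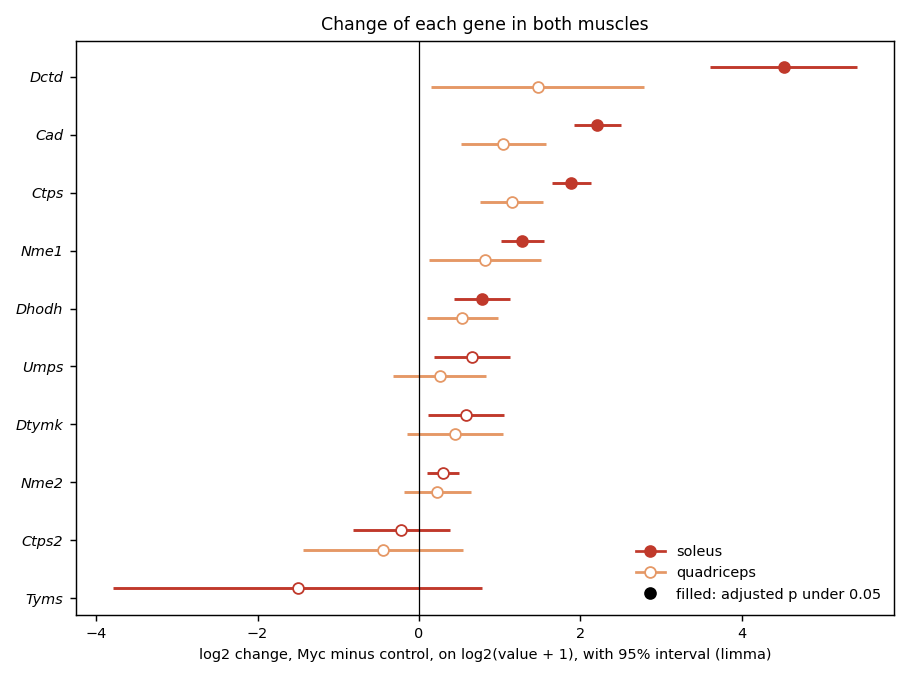
Log2 change of each gene, Myc-labelled minus control on log2(value + 1), in soleus and quadriceps (horizontal axis), with 95% intervals from limma; filled points passed an adjusted p of 0.05. The 5 filled points are all soleus, and for each of the 9 genes listed in both muscles the soleus point lies to the right of the quadriceps point.

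Between muscles, the test asks whether the Myc-labelled difference itself differs. Of 9 genes, 0 had a called difference by limma or by limma-voom, as for all 11971 genes (0%), with 381 of these, 3.18%, at an unadjusted p under 0.05. The difference was positive for 9 of 9, against 54.2% of all genes. For Ctps2, negative in both muscles (-0.22 in soleus, -0.45 in quadriceps), that means a smaller decrease in soleus. For the others it means a larger increase there. By gene, the difference was 3.05 for Dctd (SE 0.72, limma adjusted p = 0.53), 1.16 for Cad (SE 0.24, adjusted p = 0.39) and 0.74 for Ctps (SE 0.18, adjusted p = 0.62). These 3 passed an unadjusted p of 0.05. For Dctd this is a description, since it was tested because its Myc-labelled soleus libraries are high. For the other 6 genes the difference was 0.072 to 0.47. A larger change in soleus was thus not shown for any gene at the adjusted threshold. Of the 9 genes, 8 were higher without overlap in both muscles, all but Ctps2, against 8.16% of all genes.

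Genes around this pathway were counted in 7 lists of 60 genes in all: salvage, other nucleotide kinases, deoxynucleotide supply, breakdown, transport, substrate supply and users of UTP and CTP. In soleus 53 were tested, of which 2 rose and 0 fell, against 7.06% and 2.23% of all genes, with a median log2 change of 0.067. In quadriceps 51 were tested and 0 were called, with a median of -0.075; by limma 1 was higher and 1 lower there at an unadjusted p under 0.05, which 3.97% and 2.24% of all genes were. The backgrounds were those given above.

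In salvage, 1 of 8 tested genes rose in soleus, where 7.06% of all genes were called higher. Uck2, a uridine and cytidine kinase that returns the nucleosides to UMP and CMP, held 340.7, 309.7, 280.9 and 284.0 in Myc-labelled soleus against 136.1, 188.2 and 223.0 in control soleus. All Myc-labelled libraries were above the controls (log2 change 0.76, SE 0.18, limma adjusted p = 0.014). The call was lost without control replicate 1, the lowest (0.56, adjusted p = 0.080), without Myc-labelled replicates 3 and 4 (0.86, adjusted p = 0.053) and without the mean-variance trend (adjusted p = 0.072). In quadriceps Uck2 held 177.9 and 180.6 in Myc-labelled libraries against 146.2 and 189.5 in controls, which overlapped. The thymidine kinase Tk1, a gene of dividing cells, held 6.70 to 12.7 in Myc-labelled soleus against 10.6 to 25.2 in control soleus (adjusted p = 0.57), and Uprt, a homologue of uracil phosphoribosyltransferase, had a log2 change of 0.17 (adjusted p = 0.48).

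Deoxynucleotide supply had 1 gene of 9 called higher in soleus, against 7.06% of all genes. This was Shmt1, the cytosolic serine hydroxymethyltransferase that makes the folate used by thymidylate synthase. It held 313.5, 241.9, 373.1 and 284.0 in Myc-labelled soleus against 42.4, 66.9 and 64.6 in control soleus (log2 change 2.38, SE 0.23, limma adjusted p = 3.7e-06). In quadriceps it held 360.0 and 249.7 in Myc-labelled libraries against 75.4 and 65.7 in controls (log2 change 2.08, SE 0.27, limma adjusted p = 0.19). It passed there in the fit over 11 libraries (limma adjusted p = 0.0052). Leaving out each quadriceps library in turn gave log2 changes of 1.81 to 2.34. Groups were far apart in both muscles. The mitochondrial Shmt2 had a soleus log2 change of 0.32 (limma adjusted p = 0.079). That adjusted p was 0.034 with library-size scaling, 0.045 without Myc-labelled replicate 1 and up to 0.34 over all alternatives. Rrm1, the large subunit of ribonucleotide reductase, had a soleus log2 change of -0.20 (limma adjusted p = 0.43).

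Among 6 other nucleotide kinases tested, 0 were called in either muscle. Nme4, a mitochondrial nucleoside diphosphate kinase, held 55.5, 31.0, 24.2 and 54.4 in Myc-labelled soleus against 13.3, 15.5 and 16.4 in control soleus, and 7.20 and 4.93 in Myc-labelled quadriceps against 18.6 and 23.3 in control quadriceps. It was thus higher without overlap in soleus (log2 change 1.32, limma adjusted p = 0.090), as were 12.7% of all genes there. It was lower without overlap in quadriceps (-1.64, adjusted p = 0.86), as were 16.9% of all genes there. In quadriceps only the controls reached the filter value, so Nme4 was tested there because its control libraries are high. Its quadriceps change and its difference between muscles are therefore a description. The difference between muscles was 2.96 (SE 0.77, limma adjusted p = 0.67), and the quadriceps values rest on 5 to 28 reads. Nme3 and Nme7 had soleus log2 changes of -0.73 (adjusted p = 0.37) and -1.08 (adjusted p = 0.56), both with overlapping groups. Nme7 was at 0 in Myc-labelled replicate 4 and at 18.6, 21.8 and 9.24 in the others, and without replicate 4 its log2 change was -0.070.

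The 4 remaining lists had 0 called genes in both muscles by limma. In breakdown, Dpyd, which starts the degradation of uracil and thymine, had a soleus log2 change of -0.88 (adjusted p = 0.14), but -0.41 without control replicate 2, which held 189.2 against 71.6 in each other control. The nucleotidases Nt5c3 and Nt5m had 0.31 (adjusted p = 0.10) and 0.45 (adjusted p = 0.16), and both passed without control replicate 3 (0.40, adjusted p = 0.045, and 0.65, adjusted p = 0.036). For transport, the nucleoside transporter Slc29a2 had 0.59 (adjusted p = 0.12), and the mitochondrial pyrimidine nucleotide carriers Slc25a33 and Slc25a36 had 0.37 (adjusted p = 0.32) and 0.38 (adjusted p = 0.47). With 1 library left out these ran from 0.37 to 0.80, from 0.24 to 0.56 and from 0.14 to 0.54. In substrate supply, glutamine synthetase (Glul) had -0.43 (adjusted p = 0.35), which passed without Myc-labelled replicate 3 (-0.62, adjusted p = 0.010), and Prps1, which makes the phosphoribose donor, 0.21 (adjusted p = 0.35). Users of the products had 0.34 for Cmas, which activates sialic acid with CTP (adjusted p = 0.11), -0.25 for Cds2, which makes CDP-diacylglycerol (adjusted p = 0.14), and -0.10 for Ugp2, which makes UDP-glucose (adjusted p = 0.60).

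**Figure D4:**
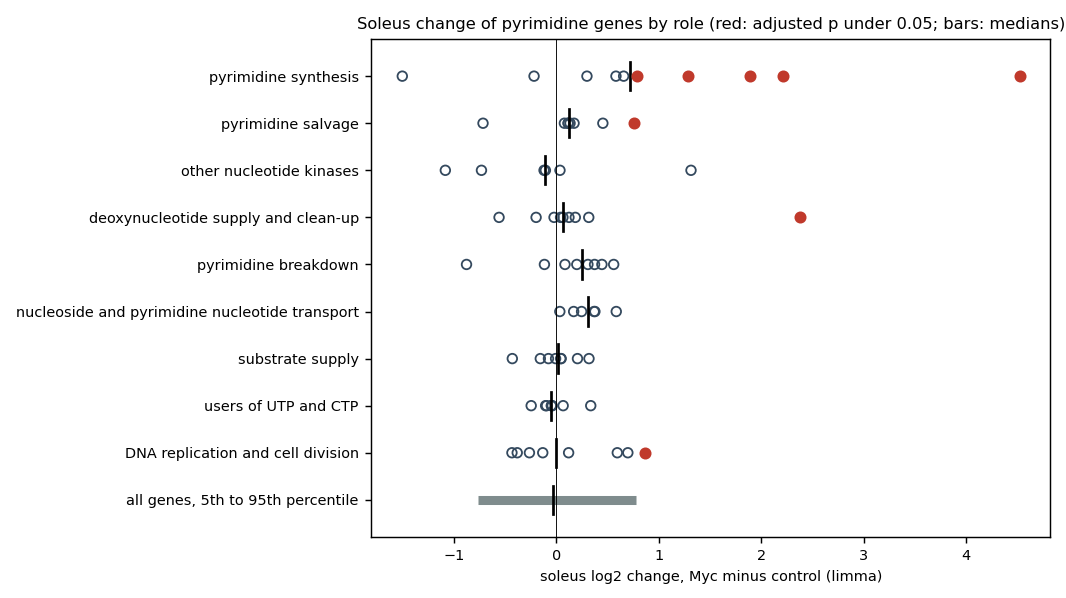
Soleus log2 change, Myc-labelled minus control (horizontal axis), of each tested gene by list; filled red points passed an adjusted p of 0.05, vertical bars are list medians, and the grey band spans the 5th to 95th percentile of all genes (-0.76 to 0.77). The synthesis genes hold 5 red points, and the 8 other lists hold 3 in all, Uck2, Shmt1 and Mcm3. Of all soleus genes tested, 7.06% were called higher.

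Genes of DNA replication and cell division were counted beside these because Tyms and Tk1 are known to follow division. Of 14, 8 were tested in soleus, and 1, Mcm3, rose, where 7.06% of all genes were called higher. This subunit of the replicative helicase held 146.0, 138.1, 123.2 and 162.3 in Myc-labelled soleus against 68.0, 85.4 and 79.8 in control soleus (log2 change 0.86, SE 0.22, limma adjusted p = 0.022). Its call was lost under 5 of 19 alternatives: without Myc-labelled replicate 1 (adjusted p = 0.054) or 4 (0.069), without both 3 and 4 (0.096), without control replicate 1 (0.086) and with the replicate number as a block (0.054). Mcm7 and Mcm4, of the same helicase, had 0.60 (adjusted p = 0.082; 0.040 without control replicate 2) and -0.43 (adjusted p = 0.37). Top2a, Cdk1, Ccnb1, Birc5 and Ube2c, which mark cells in mitosis, are in neither table. The summed level of the listed genes was 860 to 963 in Myc-labelled and 722 to 834 in control soleus, and 734 to 756 in Myc-labelled and 684 to 707 in control quadriceps.

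The genes most like Cad were taken as those with the smallest root mean square difference from it in log2(value + 1) less the control mean of the same muscle, over 11 libraries and 11971 genes. They were Lingo3 (0.147), Dkc1 (0.159), Heatr1 (0.173), Ears2 (0.206) and Gnl3 (0.208), where the median gene differed from Cad by 1.46. For Dctd they were Pdxp (0.783), AI506816 (0.858), Wnk3 (1.11), D030028A08Rik (1.15) and Ntsr2 (1.28), where the median gene differed by 2.87. None of these is one of the 10 synthesis genes. The nearest genes of Dctd were several times farther from it than those of Cad were from Cad, and the few reads of Dctd in controls enter each of its distances.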

How the data were processed

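The 10 genes, the gene lists and the tests were chosen with earlier results of these data known, so no p is given over a list. In the deposited tables each value is a normalised signal. From the values, the authors divided estimated read counts by 1 size factor per library: below 300 reads, 91.1% to 93.5% came out as whole reads, within 0.02, once divided by the library's step. Per the submitters' processing notes, STAR 2.7.8a, DESeq2 and Partek were used, in roles not given, with the builds mm10 and mm39, so the build behind the values is not settled. Strand settings are not given in the sources used here. The soleus table lists 13121 genes, and 12366 are listed for quadriceps.

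Because these are not raw counts, log2(value + 1) was modelled with limma 3.58.1 in R 4.3.3, using its trend option and robust empirical Bayes (statmod 1.5.0); this scale understates changes of scarce transcripts. The filter was a value of 10 or more in 3 soleus libraries, or in 2 from quadriceps. Soleus and quadriceps had separate fits. Their difference came from 1 fit over 11 libraries, treated as independent. Titles number the libraries in both muscles, and no label says whether equal numbers mean the same animal. That possible tie between muscles was not examined. P-values were adjusted by Benjamini-Hochberg over all genes of a fit. Ratios of paralogues were compared by exact permutation tests. The limma step was tested on simulated data. No pair of replicates agreed within sampling noise.

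Libraries were grouped by title and tissue label. Named genes are the 10, Myc, and from each list those called and the 3 with the smallest soleus p, except 1 that is not reported here. For like patterns, the 5 nearest genes are named. Exon lengths, overlaps and near copies (BLAST 2.17.0, at least 88% identity over 400 bases) come from GENCODE annotation of the older build. Alternatives were other scalings, filters and pseudocounts, limma-voom, other moderation, 1 joint fit, a replicate block and libraries left out. Late-life exercise, which the series also refers to, is not analysed here.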

Additional observations from a re-analysis of the deposited data

Results flagged for a closer look

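Of 48 sets of 4 Myc-labelled soleus values examined, 1 held a library apart from the others, where chance alone gives about 1 in 20. Nt5m, a mitochondrial nucleotidase, stood at 254.5 in Myc-labelled replicate 2 against 314.3 to 328.1 in the other 3 Myc-labelled libraries and 180.4 to 294.7 in control soleus. On log2(value + 1) the gap to the nearest library was 0.832 of the range, barely past Dixon's critical value for 4 samples. Its log2 change of 0.45 was not called (limma adjusted p = 0.16).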

How the results depend on the processing

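Over 63 results, 1164 alternative values were computed; 1131 kept their direction and side of the threshold, 8 lost a call, 17 gained one and 8 changed sign. In soleus the number of genes called was 1184, against 569 without the mean-variance trend, 624 without both Myc-labelled replicates 3 and 4, and 773 to 1015 with 1 library left out; 773 was without control replicate 2. In quadriceps 1 gene was called, against 94 in 1 fit over all 11 libraries, 0 with library-size scaling, 0 without the trend and 3 to 106 with 1 library left out; 2 of the synthesis genes passed in the joint fit and 0 to 1 with 1 library left out. For the difference between muscles, 0 genes became 4 without robust moderation and 0 to 16 with 1 library left out. Same-numbered Myc-labelled and control libraries correlated at 0.0010, 0.076 and 0.138 in soleus, and differently numbered ones at -0.196 to 0.212. The numbers were thus not taken to pair them. In quadriceps the value was 0.144, but with 2 libraries per group the differently numbered ones can only mirror it, at -0.144. With the replicate block 4 genes were called in quadriceps and 20 between muscles. In soleus 1216 genes were called with it and 6 of the synthesis genes, Umps included (0.78, limma adjusted p = 0.045). With 1 library left out, the soleus balance of Ctps to Ctps2 was 1.96 to 2.25 and that of Nme1 to Nme2 0.91 to 1.04, and without both Myc-labelled replicates 3 and 4 they were 2.03 and 0.96 (exact permutation p = 0.0667 to 0.1, the smallest these sizes allow). Sign changes, all of uncalled values, were soleus Nme7 (0.28) and the soleus minus quadriceps difference of Nme2 (-0.039) without both soleus Myc-labelled replicates 3 and 4; the differences of Ctps2 (-0.18, up to 0.64 without other libraries) and Dtymk (-0.0037, up to 0.27) without quadriceps Myc-labelled replicate 1; Myc in quadriceps (0.12, down to -1.22) and its difference (-0.44, up to 0.90) without quadriceps Myc-labelled replicate 2; and quadriceps Uck2 (-0.080, up to 0.29) and the difference of Myc (-0.28) without quadriceps control replicate 1. The causes were not tested. Depth limits Tyms in soleus, Nme4 in quadriceps and the control side of Dctd.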
